A study of Mus musculus with 12 samples.

Results

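The nuclear genes that encode the subunits of the mitochondrial respiratory chain were followed through 12 mouse kidney RNA sequencing libraries, complex by complex. Members were the rows of the deposited table whose NCBI Gene number maps to a protein-coding Nduf, Sdh, Uqcr, Cyc1, Cox4 to Cox8 or Atp5 symbol, assembly factors left out. Of 88 such symbols, Ndufb1 had no row, which left 87 of the 27179 genes measured: 39 of complex I, 4 of complex II, 9 of complex III, 18 of complex IV and 17 of complex V. The kidneys formed 4 groups of 3 libraries, from wild-type mice or γGT1-Cre;Fan1-/- mice (FAN1KO), given saline or cisplatin. Fan1 encodes a nuclease of DNA crosslink repair, the γGT1-Cre transgene deletes it in the proximal tubule so that other kidney cells keep it, and cisplatin is a crosslinking drug that injures that segment. Mice of both genotypes were 8 to 12 weeks old on a mixed background, and cisplatin was injected into the peritoneum at 2 mg/kg weekly for 5 weeks. The labels number the libraries of a group 1 to 3 without stating that each came from a separate animal, so p-values measure the spread between these libraries only.

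The respiratory chain moves electrons from NADH (complex I, NADH:ubiquinone oxidoreductase) and succinate (complex II, succinate dehydrogenase) through complex III to oxygen at complex IV (cytochrome c oxidase), and complex V (ATP synthase) uses the proton gradient that complexes I, III and IV build. Most complexes have a core, whose subunits have bacterial counterparts and carry the flavins, iron-sulfur clusters, hemes or catalytic sites, and many supernumerary subunits that surround it. Proximal tubule cells are rich in mitochondria and depend on oxidative metabolism. Here 22 members were core and 65 supernumerary; the core subunits of complex IV are encoded in mitochondrial DNA, so its 18 nuclear members are all supernumerary.

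Values were TPM, a level per length of transcript in which the genes of a library sum to 1000000. Whole reads recovered from the TPM steps gave 37201916 to 82947187 reads per library. Fan1 itself had a TPM of 1.98 to 3.80 in wild-type saline, 1.17 to 2.28 in FAN1KO saline, 2.33 to 3.57 in wild-type cisplatin and 1.55 to 3.51 in FAN1KO cisplatin kidneys, so the groups overlapped and the level of the whole gene did not check the genotype labels. RNA of Y-linked genes was found in FAN1KO saline 1, FAN1KO cisplatin 3, wild-type saline 3 and wild-type cisplatin 1, so once per group, and these 4 libraries stood apart: 50% of the 14972 genes tested were called lower in them and 6.31% higher, against 23.8% lower and 0 higher among the 84 members tested. Mitochondrially encoded RNA made up 10.2% to 16.7% of TPM in FAN1KO cisplatin kidneys and 18.3% to 22.7% in the other 9 libraries. Under cisplatin, the median over all genes tested of the log2 fold change between FAN1KO and wild-type kidneys was 0.24, and −0.01 after median-ratio scaling, so a subunit at 0 on the TPM scale lay below most genes.

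The members were abundant messages. Their mean TPM over the 12 libraries had a median of 404 and reached 3087 for Cox4i1, the main isoform of the subunit that opens cytochrome c oxidase assembly, and 71 of the 87 had a mean of at least 100. Together they took 4.23% to 5.22% of TPM in each library, with 4.47% to 5.15% in FAN1KO cisplatin kidneys, inside the range of the other groups. Some rows were very low. Cox7b2 and Cox8c, known as testis isoforms, had at most 3 and 2 reads in any library. Uqcr11, a small subunit of complex III, had at most 3 reads, and Sdhd, a membrane anchor of succinate dehydrogenase, had a TPM of 1.23 to 4.69 from 35 to 249 reads, although its partners Sdha, Sdhb and Sdhc stood at 293 to 843 TPM. These low rows are given as deposited; how reads were assigned is not given in the sources used here.

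Copies of subunit genes elsewhere in the genome could affect some levels, which was not tested. In windows of 100 bases, 14 members shared over 20% of their transcript with another annotated gene. The median of their mean TPM was 196 (27.3 to 671), against 447 (0.019 to 2809) for the 60 members that shared at most 5%. Atp5g2 and Ndufb4c shared every window, Atp5l 69%, Atp5g1 57.3%, Cox7c 44.4% and Atp5h 44.4%. Of the members called below, Uqcrc2 shared 22.7% with Pdzd9, Atp5pb 16.8% with Wdr77 and others, and Cox7a2l 9.9% with Gm6969. Ndufb4c, kept by the rule, had a mean TPM of 286 and Ndufb4 itself 83.4, and since every window of Ndufb4c lies in Ndufb4, and 33.4% of those of Ndufb4 in Ndufb4c, reads in the shared windows could belong to either gene.

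The question of the main comparison was how kidneys without proximal tubule Fan1 differ from wild-type kidneys after repeated cisplatin. Of the 22 core subunits 8 were lower in FAN1KO kidneys, and of the 62 tested supernumerary subunits 4 were. Ndufs1 of complex I, Sdha, Sdhb and Sdhc of complex II, Uqcrfs1 of complex III and Atp5a1, Atp5b and Atp5pb of complex V were the core members called, and Ndufa10, Uqcrc1, Uqcrc2 and Cox6a2 the supernumerary ones. By limma with Benjamini-Hochberg adjustment over all genes tested, 12 of 84 members (14.3%) were lower at an adjusted p under 0.05, where 4.37% of all genes were lower, and 2 (2.38%) were higher, Ndufa6 and Cox7a2l, where 19.6% of all genes were higher. Without FAN1KO cisplatin 1 the lower calls came to 6, all of them among the 12, and without FAN1KO cisplatin 2, wild-type cisplatin 1 or wild-type cisplatin 2 the higher calls came to 0. Fewer proximal tubule cells and less of these mRNAs per cell cannot be told apart in whole kidney RNA. The median log2 fold change of the members was −0.02, and 46 of 84 were below 0. In 18 members (21.4%) every FAN1KO value was below every wild-type value, where this held for 8.6% of all genes, and in 4 every value was above, where it held for 35.7%.

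The complexes differed in their medians. The median log2 fold change was 0.02 for complex I, −0.45 for complex II, −0.15 for complex III, 0.19 for complex IV and −0.05 for complex V, beside 0.24 for all genes tested. Median-ratio scaling placed these medians at −0.27, −0.73, −0.44, −0.09 and −0.34, beside −0.01 for all genes, so the sign for complexes I and IV depended on the scaling. The order of the complexes stayed the same, which this scaling could hardly change, since it divides all genes of a library by the same factor. With that scaling 18 members were lower and 0 higher, since Ndufa6 (adjusted p 0.874) and Cox7a2l (adjusted p 0.0644) were no longer called. The calls over all 14972 genes tested also shifted, from 654 lower and 2931 higher to 1155 lower and 1389 higher. Without the 4 libraries that hold Y-linked RNA, 12 members were lower and 3 higher, and 9 of the 12 were shared. Over all genes tested 1162 were lower and 4328 higher without those libraries. With 1 library left out at a time the medians of complexes I to V ran from −0.04 to 0.10, −0.49 to −0.41, −0.25 to −0.09, 0.00 to 0.26 and −0.14 to 0.01; the lowest came without FAN1KO cisplatin 2, or for complex IV without wild-type cisplatin 1, and the highest without wild-type cisplatin 3, or for complex IV without FAN1KO cisplatin 3 and for complex V without FAN1KO cisplatin 1.

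**Figure D1:**
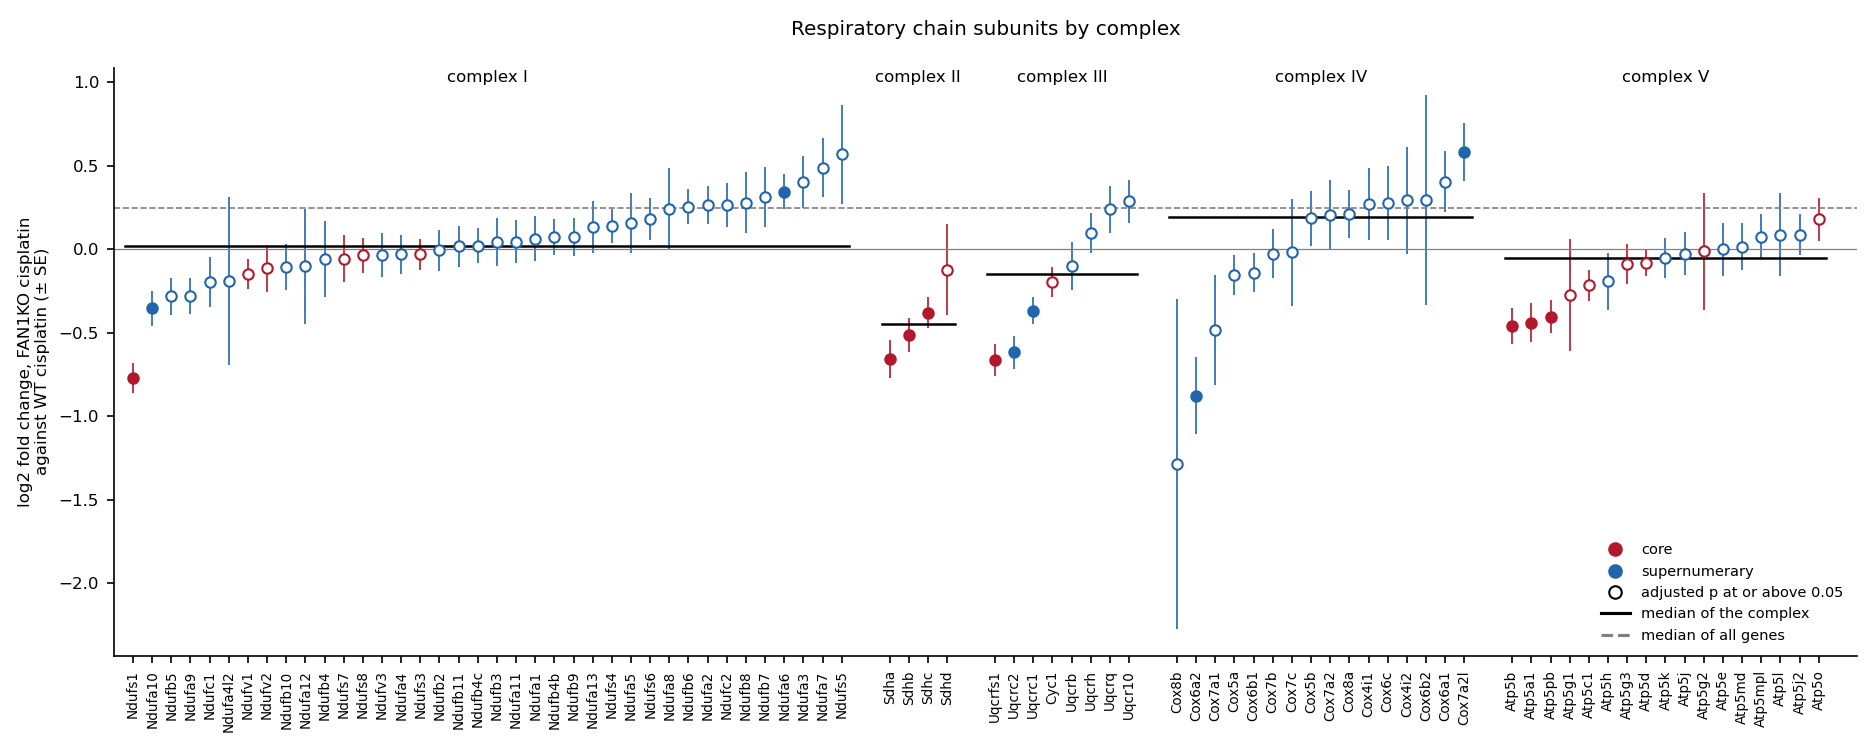
Log2 fold change on the log2(TPM + 1) scale of FAN1KO cisplatin against wild-type cisplatin kidneys, ± SE from limma, for the members tested, all but 1 of 84, sorted within complexes I to V with a black line at the median of each complex's tested members; filled points passed an adjusted p of 0.05, and the dashed line marks the median of all genes tested, 0.24. Complex II lies lowest with a median of −0.45, and the called core members (red) sit at the left end of complexes I, III and V.

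Complex I takes electrons from NADH in a peripheral arm and pumps protons in a membrane arm. Of its 39 members, all tested, 2 (5.13%) were lower and 1 (2.56%) higher, where 4.37% of all genes were lower and 19.6% higher. Ndufs1 (chr1:63143592-63176822, GRCm38.p6), the largest iron-sulfur subunit of the NADH-oxidizing module, had a TPM of 170, 169 and 147 in wild-type saline, 159, 163 and 167 in FAN1KO saline, 167, 144 and 148 in wild-type cisplatin and 86.1, 89.3 and 91.7 in FAN1KO cisplatin kidneys. The 3 FAN1KO cisplatin libraries were below the other 9, and those 9 overlapped between groups. The fold change was −0.77 (SE 0.09, adjusted p 5.25e-04), the mean decreased by 41.7%, and the call passed the threshold under each of the 22 alternatives tried. Ndufs1 overlaps Ino80dos in the annotation, and reads in that overlap could belong to either gene.

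Ndufs1 was the only core member of its complex to be called. Ndufs3, Ndufs7 and Ndufs8 of the quinone-reducing module and Ndufv1 and Ndufv2 of the NADH-oxidizing module had fold changes of −0.15 to −0.03. All 7 core members were below 0, with a median of −0.11, while 11 of the 32 supernumerary members were below 0, with a median of 0.07. Ndufa10 (chr1:92439486-92473825), a supernumerary subunit of the membrane arm with a kinase-like fold, had a TPM of 383, 336 and 330 in wild-type and 259, 291 and 269 in FAN1KO kidneys under cisplatin, a fold change of −0.35 (SE 0.10, adjusted p 0.0324). The groups did not overlap, but the call was lost under median-ratio scaling (adjusted p 0.0622) and without wild-type cisplatin 1 or 2 or any of the FAN1KO cisplatin libraries (adjusted p up to 0.118).

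At the other end of complex I, Ndufa6 (chr15:82350139-82354291), an accessory subunit of the LYR protein family, had a TPM of 174, 161 and 192 in wild-type and 213, 242 and 215 in FAN1KO kidneys under cisplatin, a fold change of 0.34 (SE 0.10, adjusted p 0.0386). It was also higher in each FAN1KO saline library (223, 210 and 222) than in each wild-type saline library (181, 169 and 210), without passing the test there (adjusted p 0.6). Its call under cisplatin was lost without any 1 of 8 libraries (FAN1KO cisplatin 1, 2 or 3, FAN1KO saline 2 or 3, wild-type cisplatin 1 or 2, or wild-type saline 1), with an adjusted p up to 0.136. Ndufs5, with the highest fold change of the complex, had 58.2, 42.9 and 44.4 in wild-type and 40.9, 107 and 83.8 in FAN1KO kidneys under cisplatin, a spread in which the groups overlapped (0.57, SE 0.30, adjusted p 0.187). Ndufs5 shares 27% of its windows with BC002163. Ndufa1 and Ndufb8, which the study assayed by transcript or protein, had fold changes of 0.06 and 0.28 and were not called (exact permutation p 0.6 and 0.3, two-sided, 3 against 3, where 0.1 is the smallest p the design allows and the value for Ndufs1, Sdha, Sdhb, Uqcrc2 and Atp5a1).

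Complex II has no mitochondrially encoded subunit and no supernumerary member, and it works in both the respiratory chain and the tricarboxylic acid cycle. The 3 abundant subunits fell. Sdha (chr13:74322255-74350240), the flavoprotein that oxidizes succinate, had a TPM of 475, 507 and 516 in wild-type and 293, 320.1 and 338 in FAN1KO kidneys under cisplatin; all 9 libraries of the other groups were at or above 430.5. Its fold change was −0.66 (SE 0.11, adjusted p 0.00352), and the mean decreased by 36.6%.

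Sdhb (chr4:140961271-140979198), the iron-sulfur subunit that passes electrons on, had 745, 739 and 818 in wild-type against 519.6, 569.5 and 523 in FAN1KO kidneys under cisplatin, a fold change of −0.51 (SE 0.10, adjusted p 0.00589). Sdhc (chr1:171129157-171150640), a heme-binding membrane anchor, had 581, 605 and 617 against 448, 496 and 443, a fold change of −0.38 (SE 0.09, adjusted p 0.0158, and 0.0634 without FAN1KO cisplatin 1). For both genes the FAN1KO cisplatin values were below those of every other library. Sdhd, the other anchor, had 2.00, 1.48 and 1.64 against 1.60, 1.63 and 1.23, which overlapped (adjusted p 0.769). From saline to cisplatin in FAN1KO kidneys Sdhd had a fold change of −0.70 (adjusted p 0.061, and 0.0471 under median-ratio scaling). The summed TPM of the complex was 1262 to 1387 in FAN1KO cisplatin kidneys and 1697 to 1980 in the other 9 libraries.

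**Figure D2:**
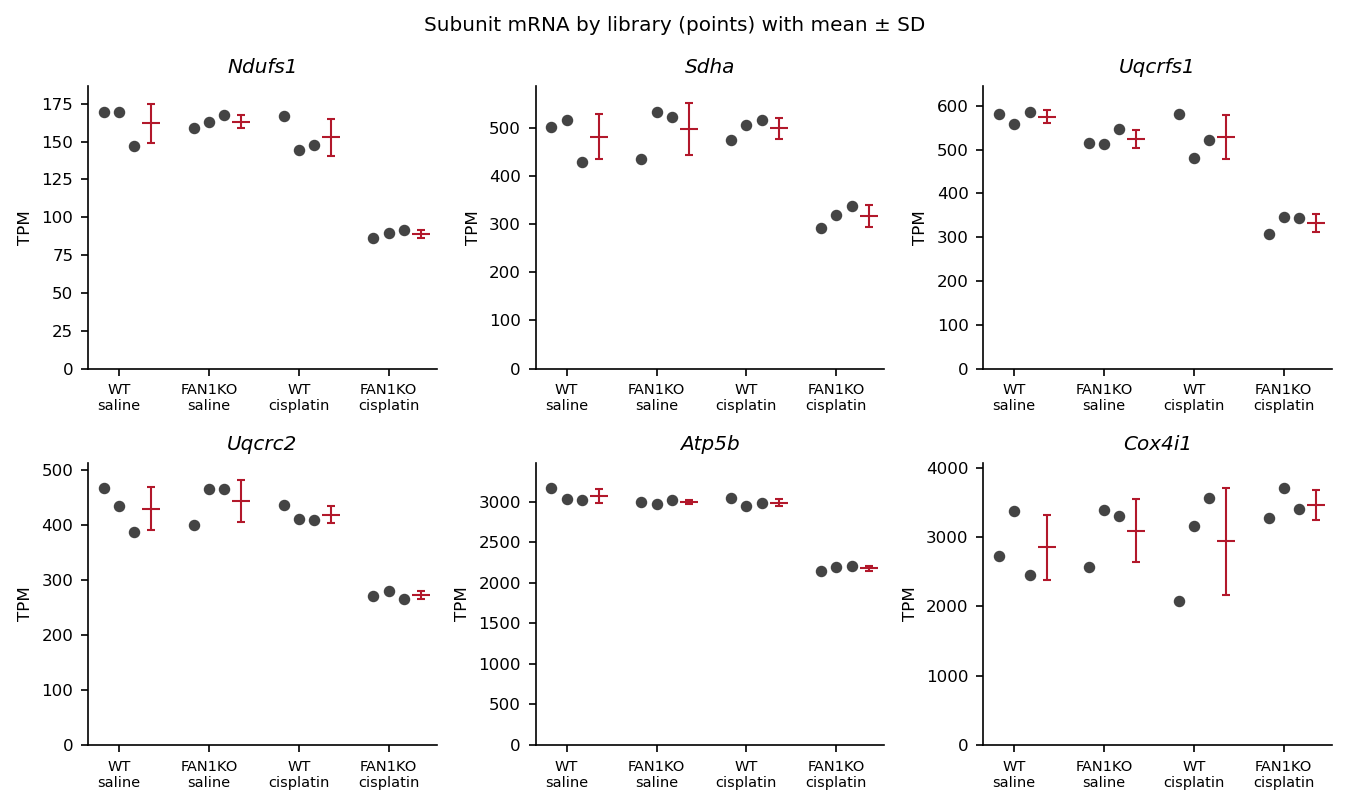
TPM of 6 subunits in each library (points, 3 per group) with the group mean ± SD (red), on axes that start at 0. Ndufs1, Sdha, Uqcrfs1, Uqcrc2 and Atp5b are lowest in the 3 FAN1KO cisplatin libraries, while Cox4i1 overlaps between groups.

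Complex III carries electrons from ubiquinol to cytochrome c. Of its 9 members 8 could be tested, and 3 (37.5%) were lower, where 4.37% of all genes were lower. Uqcrfs1 (chr13:30540312-30545316), the Rieske iron-sulfur protein, had a TPM of 582, 482 and 522 in wild-type and 308, 346 and 343 in FAN1KO kidneys under cisplatin (−0.67, SE 0.10, adjusted p 0.00152). Its saline values were 581, 559 and 587 in wild-type and 514, 512 and 548 in FAN1KO kidneys, which did not overlap either, without a call (−0.13, adjusted p 0.901). By limma's interaction term the difference under cisplatin was the more negative by −0.53 on the log2 scale (SE 0.14, adjusted p 0.0461). That call was kept under 2 of the 21 alternatives tried and lost under 19, among them median-ratio scaling and each library left out.

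Uqcrc2 (chr7:120635189-120659523) and Uqcrc1 (chr9:108936648-108949641) are the large matrix-facing subunits, related to the peptidases that process imported proteins; they are named core proteins for their position, but have no counterpart in the bacterial complex and are supernumerary here. Uqcrc2 had 436, 410 and 408 in wild-type and 271, 280.0 and 266 in FAN1KO kidneys under cisplatin (−0.62, SE 0.10, adjusted p 0.00254). Uqcrc1 had 605, 600.3 and 611 against 456, 486 and 466 (−0.37, SE 0.08, adjusted p 0.011). In both the FAN1KO values were below all wild-type values. Cyc1, the heme protein that hands electrons to cytochrome c, had 679, 689 and 742 against 586, 662 and 593, which also did not overlap, and was not called (−0.20, SE 0.09, adjusted p 0.139). The small subunits differed from these: Uqcr10 had the highest fold change of the complex, 0.29 (SE 0.13, adjusted p 0.134), and Uqcrq and Uqcrh followed at 0.24 and 0.10, none of them called.

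Complex IV had 1 member (6.25%) lower and 1 (6.25%) higher of 16 tested, where 4.37% of all genes were lower and 19.6% higher. Both were minor isoforms or relatives of abundant subunits. Cox4i1 had a TPM of 2084, 3166 and 3569 in wild-type and 3281, 3706 and 3400 in FAN1KO kidneys under cisplatin, with overlap (0.27, SE 0.22, adjusted p 0.386; exact permutation p 0.4). The low wild-type value came from wild-type cisplatin 1, the library of that group with Y-linked RNA. Among the other housekeeping subunits Cox5a, Cox5b, Cox6a1, Cox6b1, Cox6c, Cox7a2, Cox7b, Cox7c and Cox8a the fold changes ran from −0.15 to 0.41, and none was called. Within each library the ratio of Sdha to Cox4i1 TPM, which no scaling of the library changes, was 0.0893, 0.0864 and 0.0993 in FAN1KO cisplatin kidneys and 0.145 to 0.228 in the other 9 libraries.

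Cox6a2 (chr7:128205435-128206366), the isoform of heart and skeletal muscle, was the lower member. It had 5.74, 4.74 and 4.07 in wild-type and 2.39, 2.37 and 1.78 in FAN1KO kidneys under cisplatin (−0.88, SE 0.23, adjusted p 0.0214), from 26 to 254 reads per library. The wild-type cisplatin values were in turn below the wild-type saline values (6.31, 8.73 and 6.30), without a call there. The call was lost when Cox6a2 was tested without the 4 libraries with Y-linked RNA (adjusted p 0.061), without wild-type cisplatin 1 or without any of the FAN1KO cisplatin libraries, up to an adjusted p of 0.0786. The summed TPM of the 4 muscle markers Ckm, Myh7, Acta1 and Mb was 1.86 to 4.00 in FAN1KO cisplatin kidneys and 0.405 to 1.21 in the other libraries. These sums are low, and of the 4 markers only Acta1 reached the level needed for testing. Its mean TPM was 0.63 in wild-type and 2.25 in FAN1KO kidneys under cisplatin. Whether muscle RNA had a part in the Cox6a2 values was not tested. Cox6a1, the isoform of most tissues, had 1542 to 2995 over the 12 libraries.

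Cox7a2l (chr17:83501917-83514333), a Cox7a relative known for joining complexes III and IV in supercomplexes, was the higher member, with 124, 145 and 167 in wild-type and 221, 225 and 203 in FAN1KO kidneys under cisplatin (0.58, SE 0.17, adjusted p 0.0339). No FAN1KO cisplatin value reached down to those of any other group. The rise of the mean was 49.2%, and relative to the median of all genes the fold change was 0.29 under median-ratio scaling, no longer past the threshold, as also without FAN1KO cisplatin 1 or 2 or wild-type cisplatin 1 or 2. Its paralogues Cox7a1 and Cox7a2 had fold changes of −0.49 (SE 0.33, adjusted p 0.304) and 0.20 (SE 0.21, adjusted p 0.499).

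Complex V couples a proton-driven rotor to the catalytic head. Of its 17 members, all tested, 3 (17.6%) were lower and 0 higher, where 4.37% of all genes were lower and 19.6% higher. At an unadjusted p under 0.05, which 38% of all genes passed, the complex held 4. Atp5b (chr10:128083307-128090388), the catalytic beta subunit and one of the most abundant members, had a TPM of 3041, 2946 and 2982 in wild-type and 2139.9, 2190.2 and 2202 in FAN1KO kidneys under cisplatin (−0.46, SE 0.11, adjusted p 0.0139, and up to 0.0533 without FAN1KO cisplatin 1 or 2). The values of the 9 other libraries lay between 2946 and 3167, a narrow range that no FAN1KO cisplatin value entered. Atp5a1, the alpha subunit, had 1651, 1731 and 1845 against 1287, 1342 and 1225 (−0.44, SE 0.12, adjusted p 0.022). Atp5a1 overlaps Haus1, and its call was lost when any 1 of the FAN1KO cisplatin libraries, or wild-type cisplatin 2 or 3, was left out (adjusted p up to 0.07).

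Atp5pb (chr3:105942698-105959263), the b subunit of the stator that holds the head in place, had 483, 399 and 422 against 328, 346 and 308 (−0.41, SE 0.10, adjusted p 0.0158), and −0.28 without the libraries with Y-linked RNA (adjusted p 0.0557) or up to an adjusted p of 0.0558 without FAN1KO cisplatin 1 or wild-type cisplatin 1. Atp5o, another stator subunit, had the highest fold change of the complex, 0.18 (SE 0.13, adjusted p 0.325). The c subunits of the rotor ring are encoded by Atp5g1, Atp5g2 and Atp5g3. Atp5g3 gave most of their RNA, 1825 to 2238 TPM over the 12 libraries, and the 3 genes had fold changes of −0.27, −0.01 and −0.09, none called. All 8 supernumerary members lay between −0.19 and 0.09.

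Across complexes, 8 of the 22 core members were called lower and 0 higher, against 4 lower and 2 higher of the 62 supernumerary members tested, where 4.37% of all genes were lower. The medians were −0.19 for the core and 0.07 for supernumerary members, and −0.48 and −0.22 under median-ratio scaling. The call was made on each gene alone; the difference between the classes is given as a description. The balance was also read within each library as the summed TPM of core over supernumerary members. It was 0.464, 0.433 and 0.424 in wild-type saline, 0.424, 0.418 and 0.395 in FAN1KO saline, 0.489, 0.424 and 0.403 in wild-type cisplatin and 0.338, 0.315 and 0.339 in FAN1KO cisplatin kidneys. The FAN1KO cisplatin values lay below all others, and the other groups overlapped.

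The same order was seen within complexes I, III and V. A summed TPM is led by its most abundant members, and the core of complex III holds 2 members, Uqcrfs1 and Cyc1. In complex I the ratio was 0.163 to 0.174 in FAN1KO cisplatin kidneys and 0.186 to 0.207 elsewhere, and in complex III it was 0.205 to 0.219 and 0.257 to 0.321. In complex V it was 1.38 to 1.60, and 1.64 to 1.98 elsewhere. Leaving out members that share over 5% of their windows with another gene gave 0.419 to 0.455 in FAN1KO cisplatin kidneys and 0.532 to 0.653 in the other libraries. The summed level itself fell for the core, from 13892 to 14879 TPM in wild-type to 11297 to 12324 in FAN1KO kidneys under cisplatin, while the supernumerary sum overlapped, 28407 to 36899 against 33378 to 39122.

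**Figure D3:**
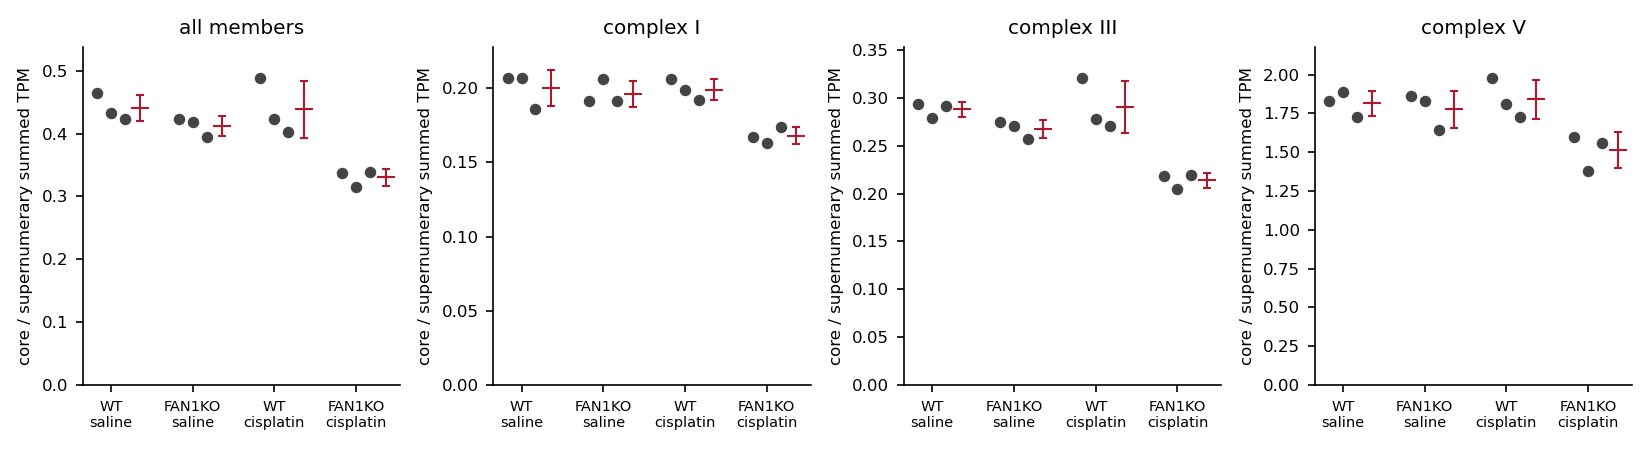
Summed TPM of core members divided by that of supernumerary members in each library (points) with the group mean ± SD (red), for all members and for complexes I, III and V, on axes that start at 0. The 3 FAN1KO cisplatin libraries lie below the other 9 in each panel, at 0.315 to 0.339 for all members.

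Core subunits are the longer proteins, so length was examined beside class. The longest coding sequence of a core member had a median of 778.5 bases (408 to 2181), and of the 63 supernumerary members with a coding length 324 bases (156 to 1440). Over the 82 tested members with a coding length, the Spearman rank correlation of the fold change with coding length was −0.43, as a description across genes that share libraries. Over all 13252 genes with a coding length it was −0.05, and over the 7106 within the range of exon lengths of the members −0.07. Within the core it was −0.60 (22 genes) and within supernumerary members −0.06 (60 genes). Values of this size also arose without calls. For cisplatin against saline in wild-type kidneys, where no member was called, it was 0.63 within the core and 0.39 within supernumerary members. Divided at 700 bases, a value chosen after the data were seen, 10 of 18 longer members were called lower, with a median fold change of −0.36. Of the 64 shorter ones 2 were called lower, with a median of 0.05, where 4.37% of all genes were lower. Of the longer 18, 13 were core. Of the 5 longer members that are supernumerary, Uqcrc1, Uqcrc2 and Ndufa10 were called, and Ndufa9 (−0.28, adjusted p 0.0816) and Ndufv3 (−0.034, adjusted p 0.872) were not.

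**Figure D4:**
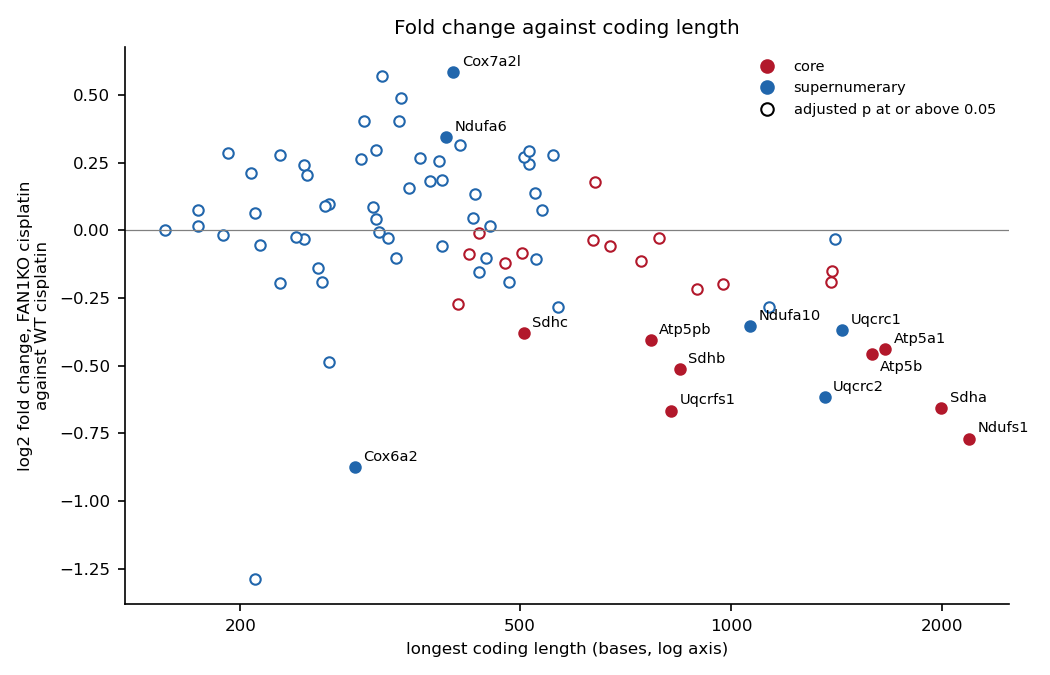
Log2 fold change of FAN1KO cisplatin against wild-type cisplatin kidneys against the longest coding length in bases (log axis) for the 82 tested members with a coding length; red points are core, blue supernumerary, filled points passed an adjusted p of 0.05. Called members apart from Cox6a2, Sdhc, Ndufa6 and Cox7a2l lie among the 18 with at least 700 coding bases.

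Promoters were read for motifs of factors known to control nuclear respiratory genes, in the 300 bases from 250 before to 50 after the RefSeq start site (GRCm38.p6), on both strands. Of the members, 69 had an entry. GCGCATG, one side of the palindrome known for nuclear respiratory factor 1, was present in 13 (18.8%), against 4.41% of all 27025 genes with an entry, and the ETS motif CCGGAAG, bound by the GABP factor among others, in 17 (24.6%), against 9.93%. CCAAT was present in 43.5% of members and 41.1% of genes, and TATAAA in 11.6% and 15.7%. Of the 12 members called lower, 7 had an entry: the nuclear respiratory factor 1 motif was in 2 of these 7 and in 10 of the 60 other tested members, and the ETS motif in 1 of 7 and 15 of 60. A match of letters is a description of the window and not a shown binding site.

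The stretches that hold these matches in a called member of complex II, a called member of complex III and in 2 abundant members that were not called are shown 5′ to 3′ on the strand of the gene, from RefSeq, with the motif letters in capitals, CTTCCGG and CATGCGC being CCGGAAG and GCGCATG on the opposite strand; where GCGCATG stands on both strands, the matches overlap in 1 capital run. The Sdhb stretch (chr4:140961201-140961290, plus strand) runs from 70 bases before the start site to base 20 of the transcript, with CATGCGC 53 bases before the start and the ETS motif at base 7. The Uqcrc1 stretch (chr9:108936668-108936697, plus strand) holds bases 21 to 50 of the transcript, with the nuclear respiratory factor 1 motif at base 31. The Cox6a1 stretch (chr5:115348959-115349138, minus strand) covers the 180 bases before the start, and the Atp5k stretch (chr5:108434380-108434469, minus strand) runs from 70 before it to base 20. Both motifs stand in Cox6a1 and Atp5k, whose fold changes were 0.41 (adjusted p 0.131) and −0.05 (adjusted p 0.774).
Sdhb: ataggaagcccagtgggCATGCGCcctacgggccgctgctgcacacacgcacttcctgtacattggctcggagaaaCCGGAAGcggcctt
Uqcrc1: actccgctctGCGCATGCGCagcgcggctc
Cox6a1: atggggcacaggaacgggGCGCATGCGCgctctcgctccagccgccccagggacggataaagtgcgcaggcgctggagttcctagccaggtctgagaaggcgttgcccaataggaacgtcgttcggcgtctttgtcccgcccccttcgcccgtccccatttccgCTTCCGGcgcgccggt
Atp5k: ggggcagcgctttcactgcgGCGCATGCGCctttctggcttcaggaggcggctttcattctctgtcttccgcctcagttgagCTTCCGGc

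The comparison of FAN1KO with wild-type kidneys under saline asks what loss of Fan1 alone does. None of the 84 members was called in either direction by limma, where 0.427% of all genes were lower and 0.341% higher, and 5 had an unadjusted p under 0.05, where 8.38% of all genes did (Ndufc2, Ndufs5 and Cox6a2 above 0, Atp5d and Atp5l below). The fold changes had a median of −0.01. Groups did not overlap for 3 members on the lower side, where this held for 7.83% of all genes, and for 4 on the higher side, where it held for 4.62%. Sdha was at 483 ± 45.9 in wild-type and 498 ± 54.6 in FAN1KO kidneys (SD, n = 3), Ndufs1 at 162 ± 12.8 and 163 ± 4.20, and Atp5b at 3072 ± 82.1 and 2999 ± 25.3.

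The comparison of cisplatin with saline asks what the drug changed in each genotype. In wild-type kidneys no member was called by limma, where 0% of all genes were lower and 0.0601% higher, and 2 had an unadjusted p under 0.05, where 3% of all genes did, Ndufs3 (−0.22) and Cox6b2 (1.51); 70 of 84 fold changes were below 0, with a median of −0.06, beside 0.08 for all genes. In FAN1KO kidneys 15 members (17.9%) were lower, where 4.9% of all genes were lower, and 3 (3.57%) higher, where 34.9% of all genes were higher. Under median-ratio scaling 35 members were lower and 1 higher, beside 2047 lower and 2333 higher of the 14972 genes tested. The 12 members named above were among the 15. The other 3 included, named after their values were seen, Ndufa9 (−0.36, adjusted p 0.022), a subunit at the junction of the arms of complex I, and Atp5c1 (−0.33, adjusted p 0.0165), the gamma subunit that forms the shaft of ATP synthase. With 1 library left out, the calls of Ndufa9, Atp5c1 and Atp5a1 were each lost without FAN1KO saline 2 or 3, those of Ndufa9 and Atp5a1 also without 2 or more of the FAN1KO cisplatin libraries, and that of Ndufa10 without FAN1KO saline 1 or FAN1KO cisplatin 1, with adjusted p of at most 0.0781. This comparison and the one between genotypes under cisplatin share the 3 FAN1KO cisplatin libraries.

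In FAN1KO kidneys, Ndufs1 went from 163 ± 4.20 under saline to 89.0 ± 2.83 under cisplatin (SD, n = 3; −0.87, adjusted p 1.56e-04). Cox6a2 went from 10.9 ± 3.93 to 2.18 ± 0.347 (−1.87, adjusted p 3.45e-04). Uqcrc2 went from 443 ± 38.2 to 272 ± 7.08 (−0.70, adjusted p 6.60e-04). The 3 higher members were Cox7a2l (0.57, adjusted p 0.0231), Ndufa2 (0.42, adjusted p 0.015), a small subunit of complex I, and Cox6b2. Of these, Cox6b2 was higher under every alternative tried, Ndufa2 had a fold change below 0 under median-ratio scaling, and Cox7a2l was not called under it. Without FAN1KO saline 1 or FAN1KO cisplatin 2 neither Ndufa2 nor Cox7a2l was called, and Cox7a2l was not called without FAN1KO cisplatin 1 either.

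Cox6b2, the testis isoform of a subunit that faces the intermembrane space, had the largest rise of the members. It had 12.9, 56.5 and 40.0 TPM in FAN1KO saline and 199, 228 and 156 in FAN1KO cisplatin kidneys (2.60, SE 0.63, adjusted p 0.00913), and it also went from 74.4, 77.3 and 28.0 to 71.1, 158 and 339 in wild-type kidneys, with overlap and no call (1.51, adjusted p 1). The genotypes overlapped under cisplatin (0.29, SE 0.63, adjusted p 0.761). Its share of the common isoform Cox6b1 within a library was 0.0103 to 0.0555 under saline and 0.0545 to 0.234 under cisplatin over both genotypes.

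Whether the effect of cisplatin differed between genotypes was tested for each gene as the interaction. It passed for 5 of 84 members, all with the more negative effect in FAN1KO kidneys, where 1.02% of all genes were called on that side, and for 0 with the more positive effect, where 5.22% of all genes were called. These were Ndufs1 (−0.78, SE 0.13, adjusted p 0.0124), Uqcrc2 (−0.66, SE 0.14, adjusted p 0.0256), Sdha (−0.70, SE 0.16, adjusted p 0.0331), Cox6a2 (−1.40, SE 0.33, adjusted p 0.0357) and Uqcrfs1 (−0.53, SE 0.14, adjusted p 0.0461). For Ndufs1 cisplatin had an effect of −0.87 with the FAN1KO genotype and −0.09 with the wild type, and for Sdha −0.65 and 0.05. Leaving out 1 library at a time gave 1 to 4 calls, with 1 without FAN1KO cisplatin 1 or 2, FAN1KO saline 2 or 3, wild-type cisplatin 1 or wild-type saline 2. Ndufs1 kept its call under each of the 21 alternatives. The call was kept under 14 of them for Uqcrc2, 10 for Sdha, 8 for Cox6a2 and 2 for Uqcrfs1.

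Several isoform genes tracked the Y-linked RNA, as did other members. Cox8b, a muscle and heart isoform, had in saline 20.8, 18.4 and 9.13 TPM in wild-type and 0, 15.9 and 8.92 in FAN1KO kidneys, and in cisplatin 2.36, 11.1 and 8.17 in wild-type and 2.50, 5.52 and 0.124 in FAN1KO kidneys. In each group its lowest value came from the library with Y-linked RNA, as it did for Cox6b2, Ndufa4l2 and Cox7a2l. With a term for these libraries beside the 4 groups, a fit added after the data were seen, Ndufa4l2 was lower in them by 1.12 on the log2 scale (adjusted p 3.5e-04), Cox8b was lower by 2.11 (adjusted p 9.81e-04), Cox6b2 by 1.34 (adjusted p 0.00127) and Cox7a1 by 0.65 (adjusted p 0.0045). In all, 20 of the 84 members tested were called lower for that term and 0 higher. Among the 20 were the abundant Cox6c (−0.425, adjusted p 0.00418) and Cox4i1 (−0.354, adjusted p 0.0218). Over all genes tested 50% were called lower, and the median for that term was −0.25. The sex of the mice and other features of those libraries cannot be told apart here. Cox8b had the lowest fold change of complex IV in FAN1KO cisplatin against wild-type cisplatin kidneys (−1.29, SE 0.99), with overlapping values and an adjusted p of 0.365. Without the 4 libraries with Y-linked RNA Cox8b was called lower (−1.14, adjusted p 0.0377), and so it was from saline to cisplatin in FAN1KO kidneys (−1.44, adjusted p 0.0111).

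**Figure D5:**
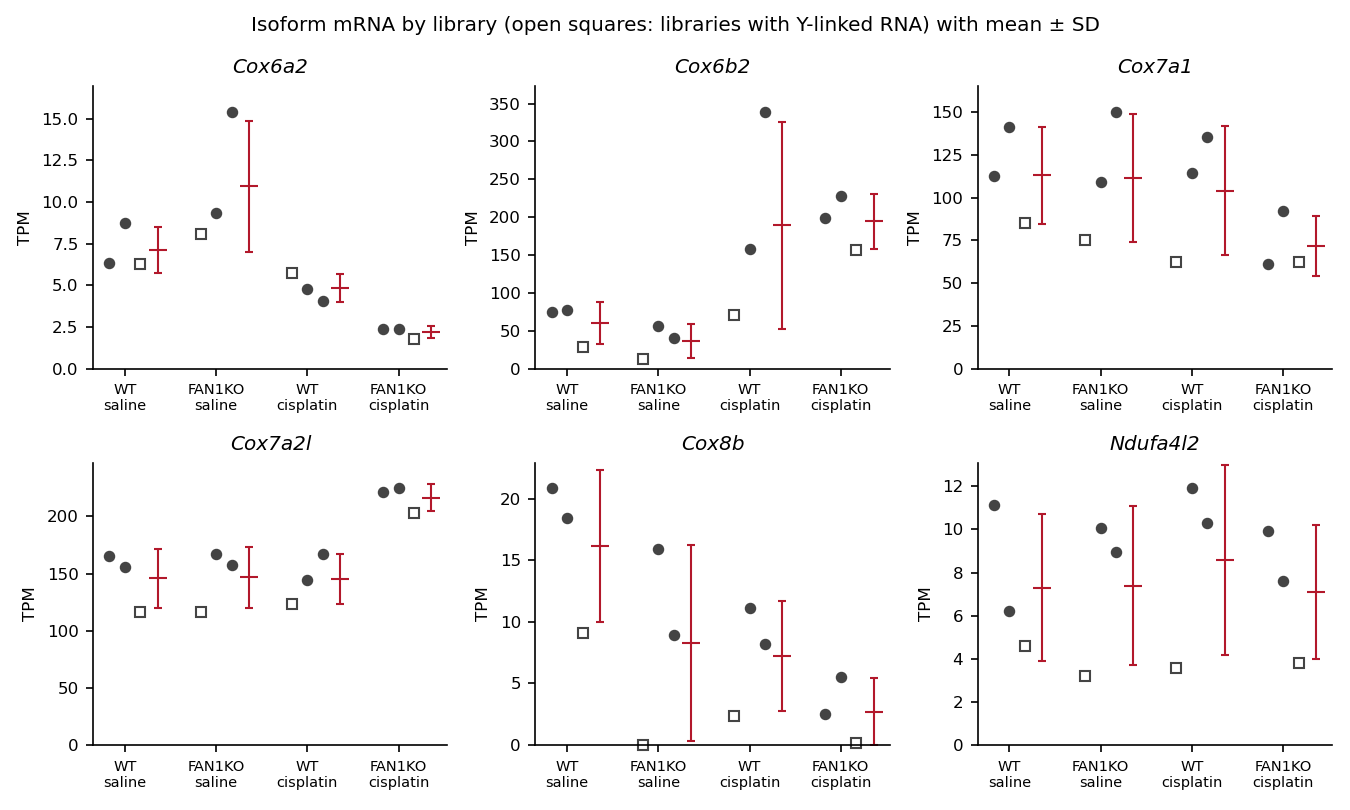
TPM of 6 isoform genes in each library with the group mean ± SD (red), on axes that start at 0; open squares are the 4 libraries with Y-linked RNA. For Cox6b2, Cox7a2l, Cox8b and Ndufa4l2 the open square is the lowest of its group, and for Cox6a2 the FAN1KO cisplatin libraries are the lowest 3.

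In most paralogue pairs the common isoform stood far above the other. Cox4i2, the lung isoform, had 1.08 to 5.64 TPM where Cox4i1 had 2084 to 3706. Ndufa4l2, known as a hypoxia-induced relative, had 3.20 to 11.9 where Ndufa4 had 1427 to 1908; Ndufa4 carries a complex I name and is now placed in complex IV, and counting it there left the medians of both complexes within the spread between replicates. Cox7a1, the muscle isoform, had 61.0 to 150.5 TPM and Cox7a2 82.7 to 165, and Cox7a1 was the higher in 4 of the 12 libraries (FAN1KO saline 3, wild-type cisplatin 3 and wild-type saline 1 and 2). Cox8a had 1484 to 2263, above Cox8b in every library.

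Neighbouring genes of the same organelle gave a background to the members under cisplatin. Of the 52 tested assembly factors, 9 were lower and 5 higher in FAN1KO against wild-type kidneys, with a median of 0.01, where 4.37% of all genes were lower and 19.6% higher. Under median-ratio scaling 15 were lower and 2 higher, with a median of −0.26, beside 1155 lower and 1389 higher of the 14972 genes tested. The lower ones included Acad9 (49.7 ± 2.84 to 27.2 ± 2.15 TPM, −0.85, adjusted p 6.97e-04) and Ndufaf4 (−0.65, adjusted p 0.00454) for complex I, Tmem70 (−0.64, adjusted p 0.00274) for complex V and Lrpprc (−0.40, adjusted p 0.0204), which stabilizes mitochondrial mRNA. The higher ones included Uqcc2 (128 ± 35.8 to 235 ± 31.4 TPM, 0.91, adjusted p 0.0198) and Lyrm7 (0.89, adjusted p 0.00379), which assist the assembly of complex III. The mean TPM of Lyrm7 was 1.21 in wild-type and 3.13 in FAN1KO kidneys under cisplatin, and under saline it was 1.16 and 2.57.

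The 13 mitochondrially encoded mRNAs were all below 0, with a median of −0.55, and ND4L alone was called (adjusted p 0.0324), where 4.37% of all genes were lower. Without the 4 libraries that hold Y-linked RNA, 7 of the 13 were called lower, where 1162 of the 14972 genes tested were. Of the regulators Ppargc1a, Ppargc1b, Nrf1, Gabpa, Tfam and Esrra none was called. The closest was Tfam, the mitochondrial transcription factor, at −0.29 (adjusted p 0.0563). An unadjusted p under 0.05 was reached by 2 of the 6, where 38% of all genes reached it. Under median-ratio scaling Tfam (−0.57, adjusted p 0.0211) and Gabpa (−0.52, adjusted p 0.0242) were called lower, where 1155 of the 14972 genes tested were.

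Markers of tubule cells moved with the same libraries. Of 8 proximal tubule markers (Lrp2, Cubn, Slc34a1, Slc5a2, Slc5a12, Slc22a6, Slc27a2 and Aqp1), all were below 0 and 6 were called lower in the FAN1KO kidneys given cisplatin than in wild-type ones, with a median of −0.82, and their summed TPM was 2562 to 4506 against 5423 to 7206. All 4 injury markers (Havcr1, Lcn2, Krt20 and Vcam1) were called higher, with a summed TPM of 778 to 1155 against 32.8 to 148. The 4 markers of the thick ascending limb, another segment rich in mitochondria, gave 1548 to 1917 against 1096 to 2567, with none called. Of the 5 leukocyte markers 1 was called higher, Cd68, and 1 was below 0, Csf1r (−0.34). Of the 5 collecting duct markers 2 were higher, and of the 3 distal convoluted tubule markers 1 was lower, Pvalb. Among the 3 podocyte and 3 fibroblast markers none was called. All these marker counts stand beside 4.37% of all genes lower and 19.6% higher. Under median-ratio scaling 4 proximal tubule and 3 injury markers and Pvalb were called, while Aqp2 (adjusted p 0.073), Aqp3 (adjusted p 0.383) and Cd68 (adjusted p 0.0589) were not. Calls under that scaling numbered 1155 lower and 1389 higher over the 14972 genes tested. Of the muscle markers 1 of 4 and of the brown fat markers 1 of 3 passed the filter on low values; the brown fat sum was 0.36 to 2.00 TPM against 0 to 13.6. Their part in the differences between subunits was not tested.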

How the data were processed

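The authors deposited 1 table of TPM for 12 whole-kidney libraries, with 27179 genes by NCBI Gene number. Total RNA was extracted from frozen kidneys, and sequenced. The submitters' processing notes name build mm10 and limma; the aligner, counter and annotation are not given in the sources used here. No column of per-sample values was left out. RefSeq (GRCm38.p6) named 25275 genes. TPM values in each library are whole multiples of what 1 read is worth per length, and all 232991 values above 0 gave whole reads, within a tolerance under which 0 of 500 randomly shifted genes did, so the recovered reads served as depth and for voom. TPM keeps shares, so a fall of abundant RNA raises other genes.

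The members and lists were chosen with earlier results of these data known. Fold changes are differences of log2(TPM + 1), which understates changes of low genes, over the 14972 genes that reached a TPM of 1 in 3 or more libraries, by limma 3.58.1 (R 4.3.3) with a mean-variance trend and 4 group means, Benjamini-Hochberg adjusted over all genes tested. On simulated data with 2-fold changes for the comparison of FAN1KO with wild-type kidneys under cisplatin, 150 of 198 changed genes were called in the right direction and 18 unchanged ones among 14604 tested. The simulation gave every gene the same spread and held no library that stands apart, so these rates may not hold for the calls here. Single subunits were also compared by exact permutation. Genes named are those called in that comparison, the highest and lowest of each complex, the subunits the study assayed and paralogue pairs. Alternatives were a pseudocount of 0.1, no filter, the compared libraries alone, dropping mitochondrially encoded genes, median-ratio scaling, the replicate number as a block, a Y-linked covariate, no trend, voom, and each library left out; a Y-linked term, libraries without Y-linked RNA and members with few copies were added after seeing the data. Shared windows, coding lengths and overlaps came from GENCODE M21 and RefSeq, and the letters of 1 promoter motif were shortened after matches of a longer form had been seen. Counting error alone is covered by the read numbers. Values of 1 member are not reported here on their own.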

Additional observations from a re-analysis of the deposited data

Results flagged for a closer look

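The effect of cisplatin differed between genotypes for 5 members by limma's interaction term, each more negative in FAN1KO than in wild-type kidneys. The log2 difference was −0.78 for Ndufs1, −0.66 for Uqcrc2, −0.70 for Sdha, −1.40 for Cox6a2 and −0.53 for Uqcrfs1. Over the alternatives tried, the adjusted p of Ndufs1 ran from 0.00176 to 0.0367, that of Uqcrc2 from 0.00364 to 0.069, that of Sdha from 0.00508 to 0.0911, that of Cox6a2 from 0.00735 to 0.0845 and that of Uqcrfs1 from 0.00933 to 0.119. All genes tested had a median interaction of 0.28, and −0.01 after median-ratio scaling, under which 4 members were called. Groups of 3 libraries are too small for a check of single outlying libraries.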

How the results depend on the processing

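Of FAN1KO against wild-type kidneys under cisplatin, 12 members were lower and 2 higher. The lower count was 10 to 18 under 8 of the 9 other planned settings (12 with the replicate block) and fell to 6 when the fit held the compared libraries alone, which leaves fewer residual degrees of freedom; leaving out each library in turn gave 6 to 12. The higher count was 0 under median-ratio scaling, without mitochondrially encoded genes and with the replicate block, 1 without a trend, with voom and in the compared libraries alone, 4 with a Y-linked covariate, and 0 to 3 with each library left out. In cisplatin against saline in FAN1KO kidneys, the lower count rose from 15 to 35 under median-ratio scaling (11 to 16 with each library left out). The higher count there went from 3 to 1 under median-ratio scaling or without mitochondrially encoded genes, to 6 with a Y-linked covariate, 5 without the libraries with Y-linked RNA, and 1 to 5 with each library left out. Ndufa2, higher there at 0.42, came to −0.022 under median-ratio scaling. The 5 negative interactions became 9 with a Y-linked covariate, 3 without a filter, 3 with voom, 1 with the replicate block and 1 to 4 with each library left out; the positive ones went from 0 to 3 with a Y-linked covariate and 1 without those libraries. The medians of complexes I to V moved to −0.27, −0.73, −0.44, −0.093 and −0.34 under median-ratio scaling, and those of I, II and III to −0.078, −0.55 and −0.25 when mitochondrially encoded genes were dropped; with each library left out the median of complex III ran from −0.253 to −0.091. Members under saline, and in wild-type kidneys given cisplatin, gave 0 calls under every setting run. The causes of these shifts were not tested.

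Whether the replicate numbers pair the libraries was not settled. Same-numbered libraries correlated at a mean of −0.24 between the cisplatin groups, against 0.13 for other numbers. These are correlations of deviations from means of 3 libraries, which ties both values to each other. The libraries with Y-linked RNA also had different numbers, wild-type cisplatin 1 and FAN1KO cisplatin 3. Uqcr11, Cox7b2 and Cox8c had 3 reads or fewer, so changes there were not detectable at this depth. The mean ratio of core to supernumerary members was 0.4387 in wild-type and 0.3307 in FAN1KO kidneys under cisplatin. Over the members that share at most 5% of their windows with another gene it was 0.596 and 0.4427.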
